A study of Mus musculus with 81 samples.

Results

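Of the 154235 accessible regions called in the bulk chromatin of mouse embryonic stem (ES) cells at 0h, the 15425 with the highest peak scores formed the top 10%, and 4087 of these (26.5%) overlapped no peak of the matched list from newly replicated chromatin. These 4087 regions are called nascent-absent sites here, and the other 11338 regions of the top 10%, which overlapped a 0h nascent peak by at least 1 bp, are called nascent-detected sites. Both classes were chosen by the 0h bulk score and by overlap with the 0h nascent list, so these values describe the choice and were not tested. The last score inside the top 10% was 2712, shared by 11 regions of which 7 were nascent-absent, and the highest score outside was 2711. Absence means that no peak was called: the nearest 0h nascent peak lay 28032 bp away at the median, 70 nascent-absent sites had one within 1 kb, the closest at 218 bp, and 807 (19.7%) had none within 100 kb.

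The ES cells were wild type (WT) 129/Ola at passages 35-45. They grew in N2B27 with 3 µM of the GSK3 inhibitor CHIR99021, a MEK inhibitor and LIF, and the MEK inhibitor was replaced by 250 nM of the FGF receptor inhibitor PD173074 for the last day before 0h. Epiblast-like cells (EpiLC) were induced on fibronectin with 10 ng/mL FGF2 and 20 ng/mL Activin A and sampled at 9h and 48h. At each time a 10 min pulse of 20 µM EdU, a thymidine analogue that allows capture of newly copied DNA, was followed by immediate harvest (nascent) or by a chase in 10 µM thymidine and harvest 2 h after the label (mature). Bulk is the DNA left unbound by the capture. The fibroblasts used for comparison were mouse embryonic fibroblasts (MEF) of Black6-129X1/SvJ background carrying 1 copy each of Col1a1::tetOP-OKSM, R26-M2rtTA and Oct4GFP, in which 2 µg/mL doxycycline switches on the reprogramming factors OKSM. They were sampled at 6h, 12h and 36h with the same pulse and chase, at 60h as 4 fractions (Q1 to Q4) sorted by CellTrace Violet, a dye diluted at division (the labels do not say which fraction is brightest), and in a separate experiment with aphidicolin. Each group has 3 samples, but the time courses and fractions were deposited as 1 peak list per group.

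ATAC-seq marks open chromatin through the sites that the Tn5 transposase can reach. Passage of a replication fork displaces nucleosomes and transcription factors, and nucleosomes are deposited again on both daughter strands behind the fork, so regulatory elements have to be reopened after every S phase. CpG-rich promoters are generally open in all cell types, whereas distal elements are more often bound by cell-type-specific factors. In ES cells many of the latter belong to the naive pluripotency network of Pou5f1, Sox2, Esrrb and Klf4, and part of this network is shut down on the way to the formative epiblast state.

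The ES lists held 152932 to 154758 bulk peaks, 66518 to 94946 mature peaks and 18587 to 27693 nascent peaks, with 19314 in the 0h nascent list. The sources used here do not state the read depth of these libraries. A site without a nascent peak is therefore only one where no peak was called, and why none was called was not tested. In bulk samples, fewer cells with an open site and a weaker opening in each cell cannot be told apart. As a check of the labels, bulk peaks within 10 kb of naive markers numbered 17 at Tfcp2l1 and 10 at Zfp42 at 0h and 7 and 4 at 48h, while those of the EpiLC markers Dnmt3b and Fgf5 went from 7 and 3 to 14 and 7. The counts were 5 and 4 at Klf4, 6 and 8 at Nanog and 10 and 8 at Otx2, so not every marker locus followed the label. All 11 checked marker loci of primitive endoderm, trophoblast and fibroblasts also had between 1 and 14 bulk peaks at 0h, so such peaks alone do not separate cell types.

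Nascent-absent promoters held fewer CpG dinucleotides than nascent-detected ones. Promoter windows of 300 bases, from 250 before to 50 after the annotated start, came from RefSeq (GRCm38.p6) for protein-coding genes. A window was assigned to a site when the site covered at least 50% of it. Of 21263 windows, 290 windows of 274 genes lay in nascent-absent sites and 6926 windows of 6072 genes in nascent-detected sites. Windows of 1 gene can overlap, so they are not independent. The median number of CpG was 13 in the former (interquartile range 7.25 to 19) and 24 in the latter (18 to 31.8), beside 13 over all windows. The GC content had medians of 56.7%, 63.7% and 56.3%. The following windows show the 250 bases before the start, 5′ to 3′ on the gene's strand, with each CG in capitals. The first 4 are the nascent-absent promoters with the highest site scores whose 250 bases touch no gene model. Zfp691 encodes a zinc finger protein, Alkbh6 a member of the AlkB dioxygenase family, Hsd17b11 a hydroxysteroid dehydrogenase and Pdk2 a kinase that inhibits pyruvate dehydrogenase. The last 2, of the pluripotency genes Pou5f1 (Oct4) and Zfp42 (Rex1), lay in nascent-detected sites and are shown for contrast.
Zfp691: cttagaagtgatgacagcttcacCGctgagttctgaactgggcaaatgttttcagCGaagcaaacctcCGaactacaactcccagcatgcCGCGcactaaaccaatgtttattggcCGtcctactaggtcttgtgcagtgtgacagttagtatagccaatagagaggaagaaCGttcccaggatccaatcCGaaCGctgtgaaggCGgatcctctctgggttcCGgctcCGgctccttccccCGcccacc
Alkbh6: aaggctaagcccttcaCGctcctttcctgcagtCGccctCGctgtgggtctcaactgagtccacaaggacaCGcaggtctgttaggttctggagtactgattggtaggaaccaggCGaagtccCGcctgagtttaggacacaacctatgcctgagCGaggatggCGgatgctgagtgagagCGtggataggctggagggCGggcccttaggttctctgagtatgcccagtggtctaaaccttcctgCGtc
Hsd17b11: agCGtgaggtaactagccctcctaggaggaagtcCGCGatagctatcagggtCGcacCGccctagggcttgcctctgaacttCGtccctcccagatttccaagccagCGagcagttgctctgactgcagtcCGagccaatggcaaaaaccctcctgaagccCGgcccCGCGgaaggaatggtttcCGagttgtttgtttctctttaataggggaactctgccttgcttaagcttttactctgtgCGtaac
Pdk2: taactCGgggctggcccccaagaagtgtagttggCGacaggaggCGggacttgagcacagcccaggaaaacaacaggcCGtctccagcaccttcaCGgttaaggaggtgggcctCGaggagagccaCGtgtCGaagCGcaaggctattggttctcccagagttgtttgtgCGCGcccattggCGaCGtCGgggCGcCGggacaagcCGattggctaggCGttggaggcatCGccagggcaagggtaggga
Pou5f1: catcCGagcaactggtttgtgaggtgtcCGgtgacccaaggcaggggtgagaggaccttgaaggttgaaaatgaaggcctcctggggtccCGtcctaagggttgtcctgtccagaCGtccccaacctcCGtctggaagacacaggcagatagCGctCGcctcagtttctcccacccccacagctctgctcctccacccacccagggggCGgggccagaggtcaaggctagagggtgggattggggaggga
Zfp42: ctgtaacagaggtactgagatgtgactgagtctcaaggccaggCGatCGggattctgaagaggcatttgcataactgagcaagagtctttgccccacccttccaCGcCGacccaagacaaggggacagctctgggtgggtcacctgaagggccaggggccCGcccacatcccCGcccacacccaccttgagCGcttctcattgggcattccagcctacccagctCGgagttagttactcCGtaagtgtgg

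The windows span chr4:119174196-119174445 on the minus strand for Zfp691, chr7:30308503-30308752 on the plus strand for Alkbh6, chr5:104021797-104022046 on the minus strand for Hsd17b11, chr11:95041372-95041621 on the minus strand for Pdk2, chr17:35505782-35506031 on the plus strand for Pou5f1 and chr8:43307010-43307259 on the minus strand for Zfp42. Their 250 bases hold 13, 11, 13 and 19 CpG in the nascent-absent promoters and 8 and 9 in those of Pou5f1 and Zfp42. The pair of pluripotency promoters thus had nascent peaks with fewer CpG than any of the 4 nascent-absent ones, and the count separated the classes only as a tendency. All 4 nascent-absent promoters had a bulk and a nascent peak at 48h.

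Among windows in strong sites, the share in nascent-absent sites was 31.0% (27 of 87, Wilson 95% interval 22.3 to 41.4) with 0 to 4 CpG and 20.3% (72 of 354, 16.5 to 24.8) with 5 to 9. It was 8.8% (67 of 761, 6.99 to 11.0) with 10 to 14 CpG and 0.421% (9 of 2137, 0.222 to 0.798) with 30 or more. The median CpG count of nascent-absent windows lay between 9 and 16 in each of the 5 score bins of the top 10%, against 24 in every bin for nascent-detected windows. With 1 list per group the spread between replicates is unknown, and all intervals on shares cover counting error only.

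**Figure D1:**
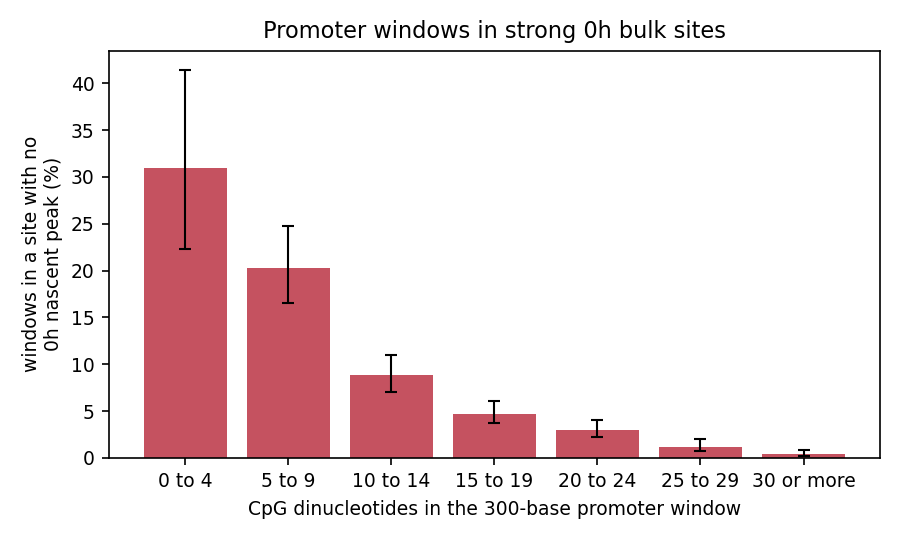
Share of promoter windows in strong 0h bulk sites that lay in a nascent-absent site (y axis, percent), by the number of CpG dinucleotides in the 300-base window (x axis). Bars are shares and lines Wilson 95% intervals; the share is 31.0% in the bin of 0 to 4 CpG and 0.421% in the bin of 30 or more.

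Short sequence motifs were counted on both strands of the same windows, and none of the motif words contains another. The GC box GGGCGG, bound by SP and KLF factors, was present in 159 of 290 nascent-absent windows (54.8%, 49.1 to 60.5), in 74.5% of nascent-detected windows (73.5 to 75.5) and in 46.2% of all windows. CCGGAAG, the core of ETS factor sites, was present in 11.7% (8.51 to 15.9), 21.8% (20.9 to 22.8) and 11.6%. CCAAT, bound by NF-Y, was present in 52.4% (46.7 to 58.1), 44.7% (43.5 to 45.9) and 38.2%, and all 6 printed promoters had it in their windows. The TATA word TATAAA was present in 7.24% (4.78 to 10.8), 4.3% (3.85 to 4.81) and 12.6%. Both CG-bearing words were less frequent in nascent-absent than in nascent-detected windows, and the CCAAT and TATA intervals of these 2 classes did not overlap or overlapped only at their edge. A match is a description of letters and not of binding.

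Most nascent-absent sites were distal, meaning here over 1 kb from the end of a protein-coding gene model. They were narrower than nascent-detected sites, though wider at the median than all 0h bulk peaks. Only 431 (10.5%, 9.64 to 11.5) lay within 1 kb of the end of a protein-coding gene model, against 6491 nascent-detected sites (57.2%, 56.3 to 58.2). A further 42.4% lay inside a gene model away from its ends and 47.0% outside gene models. Of the nascent-absent sites 28.3% were over 50 kb from any gene end, against 11.4% of the nascent-detected ones. Their median width was 675 bp (interquartile range 553 to 857), against 1030 bp (828 to 1288) for nascent-detected sites and 438 bp for all 0h bulk peaks. They became rarer with score: from 46.5% of the lowest of 5 equal score bins through 39.0%, 26.1% and 15.7% to 5.19% of the highest bin, so their median score was 3341 (2712 to 8786) against 4282 (2712 to 48402). Because of these differences, the comparisons that follow also give the nascent-detected share reweighted to the nascent-absent sites' mix of score bin and gene-end class.

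Of the 10 nascent-absent sites with the highest bulk scores within 50 kb of a gene end, 1 per gene, 9 lay inside a gene model. The highest score, 8786, belonged to an 817 bp region inside Mroh8 (chromosome 2, 157247824 to 157248640), 31052 bp from a gene end. It scored 1472 in the 0h mature list, 187, 1540 and 4665 in the 9h nascent, mature and bulk lists, and 123, 1110 and 4728 in the 48h ones. A region inside Npffr2, which encodes a neuropeptide FF receptor (chromosome 5, 89559125 to 89559568), scored 8770 in 0h bulk and 1810 in 0h mature, the highest mature score of any nascent-absent site. It had no 9h nascent peak, and its 48h nascent peak scored 136.

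A region inside Uggt2, which encodes an endoplasmic reticulum glucosyltransferase (chromosome 14, 119007266 to 119007916), scored 7971, 5533 and 6819 in bulk at 0h, 9h and 48h and had no nascent peak at any time. The site at Prmt8, an arginine methyltransferase gene (chromosome 6, 127701054 to 127701544), had no nascent peak either, with bulk scores of 7684, 2590 and 1652. Sites at Def8 (8144), Fgl1 (8133), Rph3a (7845), Dok5 (7762) and Acsl5 (7570) were kept in bulk at both later times. The site inside Kdm3b, a histone H3 lysine demethylase gene, scored 7435 at 0h and 1815 at 9h and had no bulk, mature or nascent peak at 48h. All 10 had a 0h mature peak (567 to 1810), 3 had a 9h nascent peak (109 to 202) and 5 a 48h nascent peak (70 to 149). Scores are the authors' and rank peaks within a list; their size is not comparable between lists.

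**Figure D2:**
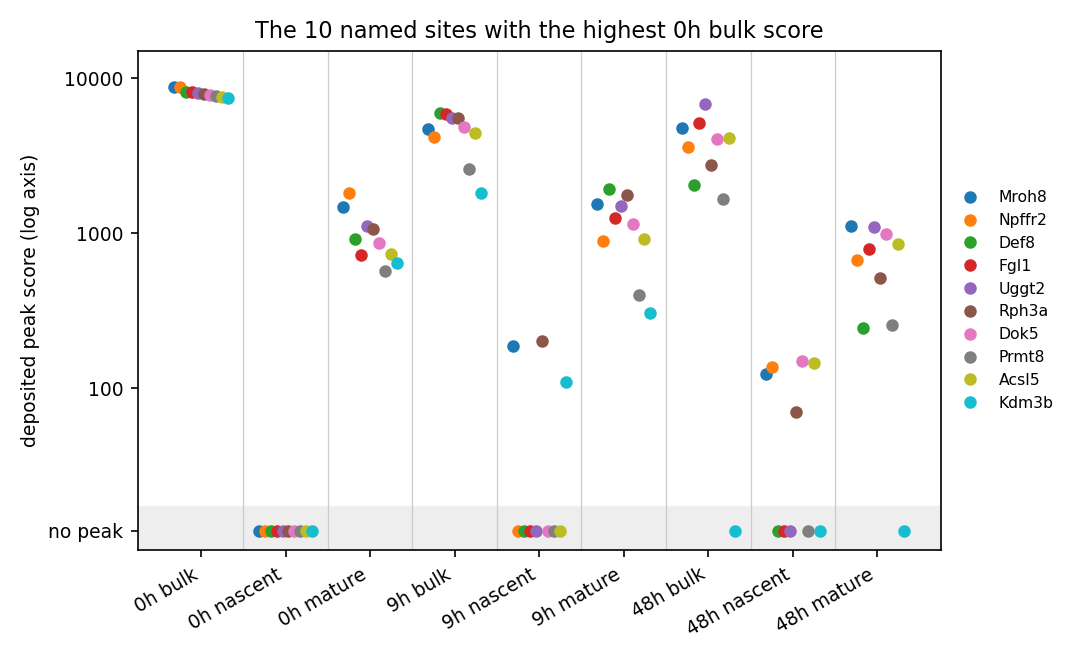
Deposited peak scores (y axis, log scale) of the 10 nascent-absent sites with the highest 0h bulk score near a gene, in the 9 ES lists (x axis); each colour is 1 site and the grey band holds sites with no peak. All 10 are in the band for 0h nascent, as chosen, and all have a 0h mature peak, while the nascent peaks at 9h and 48h score 70 to 202.

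Nearly all nascent-absent sites had an accessible peak in mature chromatin of the same time. A 0h mature peak overlapped 4009 of 4087 (98.1%, 97.6 to 98.5), against 11335 of 11338 nascent-detected sites and 42.4% of all 0h bulk peaks. After reweighting the difference was -1.8 percentage points (-2.23 to -1.36). Among sites with a mature peak, the nascent-absent ones ranked lower: their median score was 426, at the 77.9th percentile of the 0h mature list, against 707 and the 90.5th percentile. The order held in each of the 5 score bins away from gene ends, from 355 against 452 in the lowest to 692 against 1068 in the highest. When each list was shortened to the 19314 highest peaks, the length of the nascent list, 67.7% of nascent-absent sites retained a 0h mature peak. Such shortening can only lower the share, and the part that list length plays was not tested. The reweighted difference was then -21.1 points (-22.9 to -19.4), and it was -8.38 points in the top 20% of bulk peaks and -4.94 points with overlap of at least 50% of the site.

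The 78 nascent-absent sites with no 0h mature peak were narrow, with a median width of 437 bp (interquartile range 354 to 538) against 679 bp (559 to 862) for the rest. Of the 78, 74 had a bulk peak at 9h, 60 (76.9%, 66.4 to 84.9) a 9h mature peak and 52 (66.7%, 55.6 to 76.1) a 48h mature peak, and 32 (41.0%, 30.8 to 52.1) were present in all 10 fibroblast bulk and fraction lists. The highest score among them, 6046, was of a 233 bp region near Rimbp3 (chromosome 16, 17222266 to 17222498), 1571 bp from a 0h nascent peak. At 48h this region scored 11314 in bulk, the highest 48h bulk score of any nascent-absent site, 2275 in mature and 1344 in nascent chromatin. Inside Cdh10, a cadherin gene, a 338 bp region (chromosome 15, 18821334 to 18821671) lay 1163395 bp from the closest 0h nascent peak, scored 5406, 1335 and 1603 in bulk at 0h, 9h and 48h, and was in all 10 fibroblast lists. The next sites by score were at Gm53057 (5213), Pgm2 (4781) and Hspbap1 (4361), each with a 9h mature peak.

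Nascent-absent sites were also seldom detected in the nascent lists of later times, which took no part in their choice. A 9h nascent peak was present at 711 (17.4%, 16.3 to 18.6), against 78.6% of nascent-detected sites (77.8 to 79.3), or 58.7% after reweighting, a difference of -41.3 percentage points (-43.3 to -39.4). Over all 0h bulk peaks the share was 11.6%. At 48h the shares were 23.7% (967 sites, 22.4 to 25) and 77.8% (77.0 to 78.6), or 55.5% reweighted, a difference of -31.8 points (-33.8 to -29.8), beside 16.1% of all 0h bulk peaks. Only 378 nascent-absent sites (9.25%, 8.4 to 10.2) had a nascent peak at both times, and 1300 (31.8%) at 1 or both. Of the 711 with a 9h nascent peak 53.2% (49.5 to 56.8) also had one at 48h, against 17.4% (16.2 to 18.8) of the 3376 without. Where they had a nascent peak, its median score was 105 at 9h and 123 at 48h, near the medians of those lists (119 and 116), against 180 and 261 for nascent-detected sites. With overlap of at least 50% of the site the shares were 7.51% at 9h and 11.8% at 48h, and with peak scores of 100 or more they were 9.44% and 15.7%. The reweighted differences were then -27.7 and -26.2 points, and -33.0 and -29.1 points.

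Position separated the later detection. Near gene ends 37.1% of nascent-absent sites (32.7 to 41.8) had a 9h and 55.0% (50.3 to 59.6) a 48h nascent peak, against 15.1% and 20.0% away from gene ends. Nascent-detected sites near gene ends reached 93.7% and 97.7%, so the gap between the classes was present in both positions. Bulk rank at the later time, which the choice did not use, left a gap too. Among sites in the top 10% of the 48h bulk list, 781 of 1507 nascent-absent sites (51.8%, 49.3 to 54.3) and 7406 of 7728 nascent-detected sites (95.8%, 95.4 to 96.3) had a 48h nascent peak. Between the 80th and 90th percentile the shares were 22.9% and 77.6%, and between the 50th and 80th 5.38% and 26.2%. At 9h the top 10% of the bulk list gave 26.0% (24.3 to 27.7) and 86.2% (85.5 to 86.9). None of the 634 nascent-absent sites without a 48h bulk peak had a 48h nascent peak (0.0%, upper limit 0.602). The classes still differ in score within each rank class. Gene-end position, in which they also differ (10.5% against 57.2% within 1 kb), was not adjusted for in the rank classes either. The part that score and position play was not tested.

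**Figure D3:**
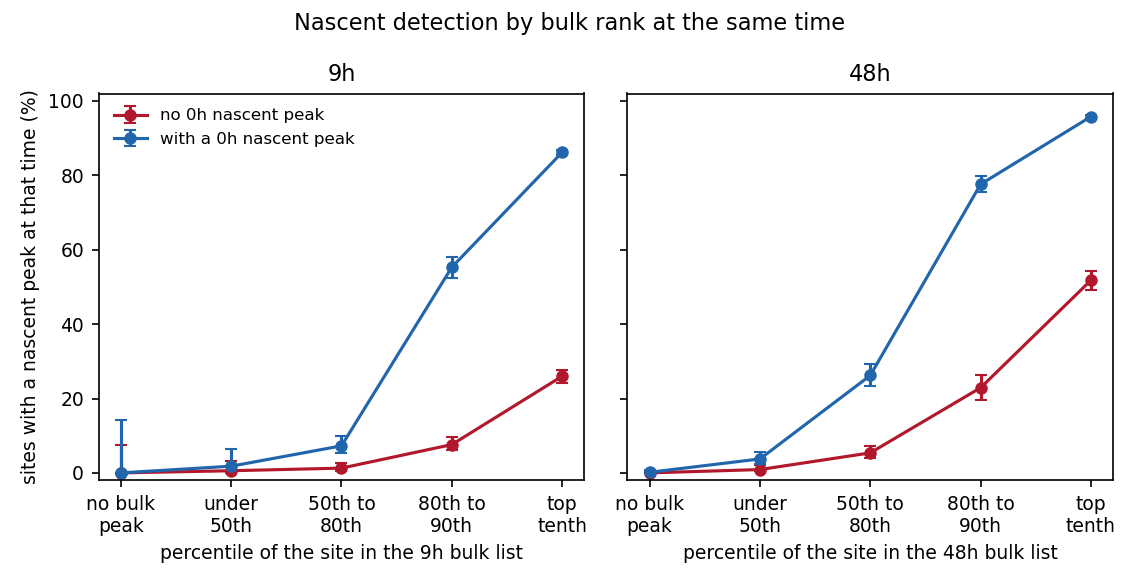
Share of strong 0h bulk sites with a nascent peak (y axis, percent) at 9h (left) and 48h (right), by the percentile of the site's bulk peak in the list of that time (x axis); red points are nascent-absent and blue points nascent-detected sites at 0h, with Wilson 95% intervals. Without adjustment for score or gene-end position, the shares in the top 10% are 26.0% and 86.2% at 9h and 51.8% and 95.8% at 48h.

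Bulk accessibility of the nascent-absent sites was almost complete at 9h and partly lost by 48h. At 9h 4039 (98.8%, 98.4 to 99.1) had a bulk peak and 3764 (92.1%, 91.2 to 92.9) a mature peak, against 99.8% and 98.9% of nascent-detected sites. The shares over all 0h bulk peaks were 78.6% and 54.2%. At 48h 3453 (84.5%, 83.3 to 85.6) had a bulk peak, against 94.5% (94.1 to 94.9), or 87.6% after reweighting, a difference of -3.15 points (-4.7 to -1.6). In the top 5% of bulk peaks this reweighted difference was 0.959 points (-1.37 to 3.29), so its direction depends on where the score limit lies. It was larger in other settings, at -8.19 points in the top 20%, -9.1 with overlap of at least 50% of the site and -7.5 with lists of equal length. For sites in no ES nascent list it was -8.53, but that rule removed only nascent-absent sites with a later nascent peak. All 967 nascent-absent sites with a 48h nascent peak had a 48h bulk peak, so this value follows in part from the choice. A 48h mature peak was present at 72.1% (70.7 to 73.4) against 91.3%, or 81.0% reweighted, a difference of -8.96 points (-10.8 to -7.09). Over all 0h bulk peaks 61.1% had a 48h bulk and 39.4% a 48h mature peak.

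By time of loss, 3436 nascent-absent sites had a bulk peak at both later times, 603 (14.8%, 13.7 to 15.9) at 9h only, 17 at 48h only and 31 at neither. Among the 603 were sites inside Dock5, a guanine nucleotide exchange factor gene (bulk scores 7321 at 0h and 3818 at 9h, present in all 10 fibroblast lists), Pde9a, a cyclic GMP phosphodiesterase gene (7115 and 586), and Atp2a2, the gene of a calcium pump (6264 and 3530), and 1 outside Olfr539, an olfactory receptor gene (6499 and 877). With Kdm3b these are the 5 with the highest 0h scores, named by a rule added after values were seen. Of the 31 lost at both times the highest scores were at Maats1 (4886), Sgf29, which encodes a SAGA complex subunit (4781), Prrc2b (3939) and Clcn6, a chloride transporter gene (3905). The first 10 by score scored 2951 to 4886 at 0h, 9 of them had a 0h mature peak (207 to 818), and none was in any fibroblast list.

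Loss by 48h differed with position and with earlier nascent detection, in both classes. Near gene ends 94.2% of nascent-absent sites (91.6 to 96.0) kept a 48h bulk peak, against 83.3% (82.1 to 84.5) away from them, and nascent-detected sites gave 99.8% and 87.5%. With a 9h nascent peak 95.5% (93.7 to 96.8) were kept, and without one 82.2% (80.8 to 83.4). For sites without a 9h nascent peak, 80.3% of nascent-detected sites kept a 48h bulk peak, or 77.2% after reweighting, so that the nascent-absent share was 4.97 points higher (2.55 to 7.39). With a 9h nascent peak 98.4% of nascent-detected sites kept one, and the reweighted difference was -0.682 points (-2.37 to 1.01). For 48h mature peaks the reweighted differences were 2.23 points (-0.53 to 5) without and -3.46 points (-5.87 to -1.05) with a 9h nascent peak. Of the 634 sites without a 48h bulk peak 624 had a 0h mature peak and 463 (73.0%, 69.4 to 76.3) a 9h mature peak. The kept sites had a 9h mature peak more often, at 95.6% (94.9 to 96.2).

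**Figure D4:**
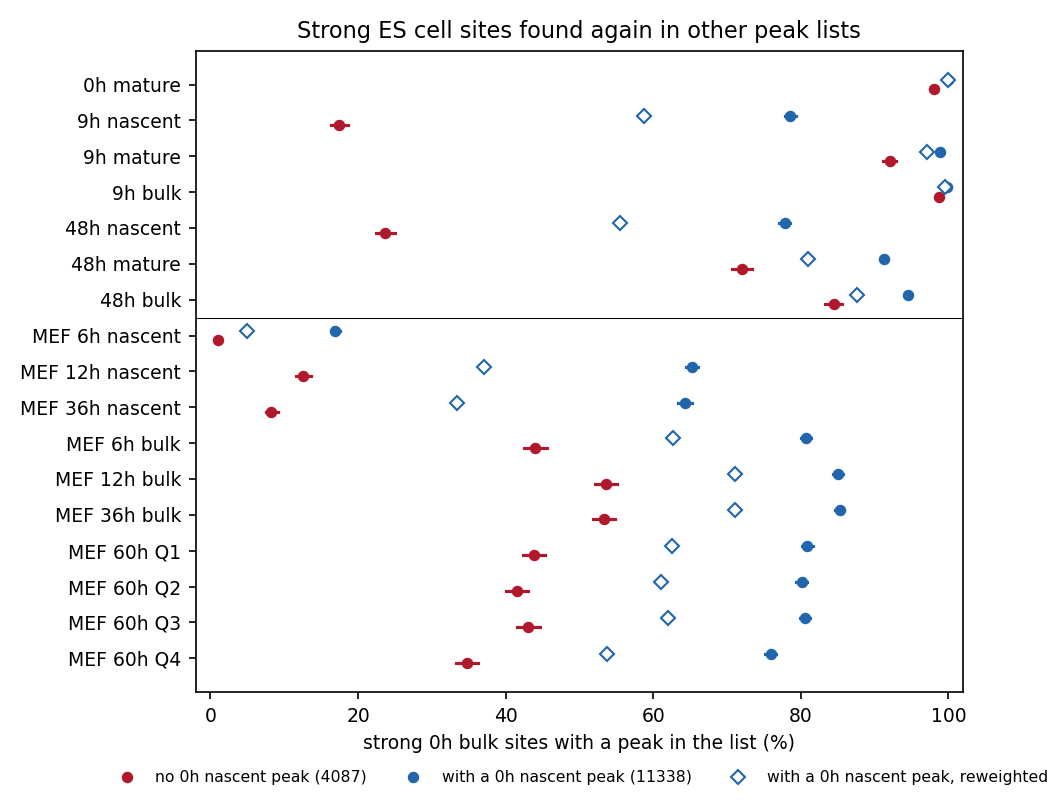
Share of the 4087 nascent-absent (red) and 11338 nascent-detected (blue) strong 0h bulk sites with a peak in each ES list (above the line) and in the fibroblast lists shown (below it), in percent, with Wilson 95% intervals; open diamonds are nascent-detected shares reweighted to the nascent-absent sites' score bins and gene-end class. The red points are close to the blue ones in 0h mature and 9h bulk (98.1% and 98.8%) and far below them in every nascent list.

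Nascent-absent sites lay in the loci of 1 of 17 naive pluripotency genes and of 3 of 14 general pluripotency genes, and these counts depended on how wide a locus was drawn. With a locus taken as the gene and 10 kb on each side, 2922 of 21887 protein-coding genes (13.4%) had at least 1 nascent-absent site, and 391 had more than 1. Over all genes, nascent-absent sites made up 19.4% of the strong sites counted in loci (3429 of 17705, sites in overlapping loci counted for each). In the naive pluripotency list, 5.88% of genes had any, and 3 of its 27 strong sites (11.1%) were nascent-absent, all at Esrrb. In the general pluripotency list it was 21.4% of genes and 3 of 16 sites. With 50 kb on each side 28.6% of all genes, 5 of the 17 naive genes (29.4%) and 9 of the 14 general ones (64.3%) had at least 1. Within 10 kb, Pou5f1, Sox2, Nanog, Klf4, Tfcp2l1, Zfp42, Prdm14 and Fgf5 had 1 or 2 nascent-detected sites each and no nascent-absent one, and Otx2 and Dnmt3b had no strong site. Within 50 kb, Pou5f1, Sox2 and Dnmt3b had 1 nascent-absent site each, and Otx2 and Dnmt3b had 1 nascent-detected site each. The S phase list (DNA replication factors) had 1 nascent-absent site of 30, near the cyclin E gene Ccne1 (score 3447), and the DNA methylation list 0 of 13. Within 50 kb, 8 of the 20 S phase genes (40.0%) and 4 of the 8 DNA methylation genes (50.0%) had a nascent-absent site, above the share of all genes at that width. By sites they were not above all genes. S phase loci then held 10 nascent-absent and 52 nascent-detected sites and DNA methylation loci 4 and 31, beside 8117 and 31732 over all genes.

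Esrrb, which encodes a nuclear receptor that maintains naive pluripotency, had 45 bulk peaks at 0h, of which 3 were nascent-absent and 4 nascent-detected strong sites. The nascent-absent sites lay inside the gene on chromosome 12. The first (86394928 to 86396195) scored 3273, 2491 and 104 in bulk at 0h, 9h and 48h, with a weak 9h nascent peak (69) and a mature score of 321 at 0h, 624 at 9h and no mature peak at 48h. The second (86433166 to 86433728) scored 4008, 3362 and 3371 in bulk and 864, 1415 and 864 in mature chromatin, and was in all 10 fibroblast lists. The third (86503955 to 86504980) scored 4143 and 1757 in bulk at 0h and 9h and had no peak in any 48h or fibroblast list. Each lay 1768 to 6656 bp from a 0h nascent peak, so the 3 sites of 1 gene took different courses beside nascent peaks of the same locus.

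The signalling and lineage lists differed from each other. In the list of WNT targets and TCF factors 6 of 14 genes had a nascent-absent site, and 6 of 18 strong sites (33.3%) were nascent-absent. Over all genes the shares were 13.4% of genes and 19.4% of strong sites. Within 50 kb, 64.3% of the WNT genes had one, beside 28.6% of all genes. WNT loci then held 9 nascent-absent and 28 nascent-detected sites, beside 8117 and 31732 over all genes. The sites within 10 kb included Lef1 (6048), Lgr5 (3836), Notum (2927) and Tcf7l1 (2876). The site outside Notum, a secreted WNT inhibitor gene, was in no 48h list, while that of Lef1 scored 6048, 4882 and 3863 in bulk. Among LIF and STAT3 genes, sites at the kinase gene Jak2 (4437, 1992 and 2106 in bulk) and the receptor gene Il6st (3938 and 1502, no peak at 48h) were nascent-absent, 2 of 18 strong sites. Of FGF and ERK feedback genes, Etv5 had 2 (3363 and 2865) and the receptor gene Fgfr1 had 1 (2866). In the formative list the Nodal antagonists Lefty2 (4037, 2815 and 2824) and Lefty1 (2861, 1964 and 2326) and the growth factor gene Fgf15 (2759, 1615 and 1691) each had 1 that kept its 48h bulk peak, and all 3 had a 48h nascent peak (402, 103 and 126). Of general pluripotency genes, Utf1 (4652), Dppa2 (3206, absent at 48h) and L1td1 (3118) had 1 each.

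In the lists of other lineages, trophoblast genes had 6 nascent-absent sites of 12 strong ones: 3 at Tead4, and 1 each at Gata3 (4510), Bmp4 (2936) and Cdx2 (2829). This is 50.0% of their strong sites, beside 19.4% over all genes. Within 50 kb, 60.0% of the trophoblast genes had a nascent-absent site, beside 28.6% of all genes. Their loci then held 8 nascent-absent and 17 nascent-detected sites, beside 8117 and 31732 over all genes. The Gata3 site scored 4510, 3506 and 3363 in bulk, had nascent peaks at 9h (162) and 48h (164) and was in all 10 fibroblast lists, whereas the Bmp4 site had no peak in any 48h list. Fn1 (3799), Col1a2 (3131) and S100a4 (3061) had 1 each of the fibroblast list's 10 strong sites, Nes had the 2 of the germ layer list's 10 (5374 and 3305) and Pdgfra the 1 of primitive endoderm's 6 (3300). Among ubiquitous promoters' loci 4 of 26 were nascent-absent, at Eno1, Gapdh, Eif4a2 and Ywhaz. Those at Gapdh and Eif4a2 lay outside the genes and had no peak in any 48h list. The 1 nascent-absent site of 11 in the CTCF and cohesin list, at the cohesin gene Smc1a (chromosome X, 152015837 to 152017077), overlapped an end of the gene model and scored 3598, 2655 and 2362 in bulk with nascent peaks of 62 at 9h and 129 at 48h. Lists are small, and nothing in these counts was tested.

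The 10 loci with the most nascent-absent sites held 4 to 6 each. The protocadherin cluster on chromosome 18, where several overlapping models share the same sites, had 6 (scores 2932 to 4224), and all 6 kept a 48h bulk peak. Arhgap26, Dock1, which encodes a RAC exchange factor, and Rad51b, which encodes a recombination protein, had 5 each, and Dab2ip, Slc39a11, Snd1, Prim2, Etl4 and Utrn had 4 each. At Slc39a11, a zinc transporter gene, 3 of 4 had no 48h bulk peak, and its strongest (6131 at 0h, 2390 at 9h) had none in any 48h list. At Rad51b all 5 kept a 48h bulk peak (141 to 3075), though 4 of the 5 had no 48h nascent peak. Across chromosomes, nascent-absent sites made up 23.3% (chromosome 11) to 33.0% (chromosome 18) of strong sites, leaving out the 5 sites on chromosome Y.

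Many nascent-absent sites were also open in reprogramming fibroblasts, but fewer than among nascent-detected sites. Of the 4087, 2426 (59.4%, 57.8 to 60.9) had a peak in at least 1 of the 10 fibroblast bulk and fraction lists and 1295 (31.7%, 30.3 to 33.1) in all 10, against 87.2% and 74.6% of nascent-detected sites. Reweighting gave 75.1% and 51.3%. With overlap of at least 50% of the site 43.6% of nascent-absent sites were in at least 1 list and 10.6% in all 10. Over all 0h bulk peaks the share with at least 1 was 44.6%. In bulk lists the nascent-absent share was 44.0% at 6h, 53.6% at 12h and 53.3% at 36h, and in the 60h fractions it was 43.9% in Q1, 41.6% in Q2, 43.1% in Q3 and 34.7% in Q4. These lists differ in length, from 57762 peaks in Q4 to 203188 in a 6h bulk list, and the shares are not compared with each other. Fibroblast nascent lists held 0.979% of nascent-absent sites at 6h, 12.6% at 12h and 8.27% at 36h. Nascent-detected sites gave 16.9%, 65.2% and 64.3%, or 4.94%, 37.1% and 33.4% after reweighting. The fibroblast nascent lists differ in length too. The 6h list is the shortest, with 3222 entries, while the 12h list has 20968 and the 36h list 15200. Their shares are likewise not compared between times.

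Strong sites of both classes that were open in fibroblasts were more often kept in EpiLC. A 48h bulk peak was present at 96.2% (95 to 97.1) of those in all 10 fibroblast lists, at 91.1% (89.9 to 92.1) of those in at least 1 and at 74.9% (72.8 to 76.9) of the 1661 in none. For the sites in no fibroblast list, nascent-detected sites gave 77.2% (75 to 79.3) at 48h and 72.9% after reweighting, a difference of 2.0 points whose interval (-1.56 to 5.56) holds 0. For nascent-detected sites in all 10 and in at least 1 it was 99.0% and 97.1%, or 97.0% and 92.8% after reweighting. The reweighted differences were -0.75 points (-2.05 to 0.553) for all 10 and -1.78 points (-3.27 to -0.285) for at least 1. The 48h nascent share of nascent-absent sites was 45.6% (42.9 to 48.4) for all 10, 33.7% (31.8 to 35.6) for at least 1 and 9.03% (7.75 to 10.5) for none. Nascent-detected sites gave 92.8%, 85.4% and 25.9%, or 79.3%, 66.5% and 24.5% after reweighting. Restricted to sites away from gene ends, 89.9% of those in at least 1 fibroblast list and 74.9% of those in none kept a 48h bulk peak.

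The aphidicolin experiment gave the only counts for single samples. MEF induced for 4 h were given 5 µg/mL aphidicolin, which blocks the replicative DNA polymerases, and were harvested with untreated MEF 10 h later, at 14h. Counts were deposited for 139000 regions, of which 138996 were tested, with library totals of 41183769 to 49440524 untreated and 55158844 to 78677381 with aphidicolin. Of the nascent-absent sites 2087 (51.1%) overlapped a counted region, against 83.9% of nascent-detected sites, giving 2177 regions. By edgeR's quasi-likelihood test with Benjamini-Hochberg adjustment over all regions (threshold 0.05), 158 of the 2177 were higher with aphidicolin (7.26%) and 781 lower (35.9%), beside 18.0% and 17.9% of all regions. Their median log2 fold change was -0.17 (interquartile range -0.35 to 0.06) against 0.02 over all regions and -0.3 over 10098 regions of nascent-detected sites. Of those 10098 regions 3.12% were higher and 60.9% lower, a stronger lean to loss than at nascent-absent sites. They also had a higher median log2 CPM (4.64 against 2.67) and were more often near gene ends (66.1% against 15.5%). This contrast of the 2 classes was not matched for level or position. All regions reweighted to the level deciles and gene-end class of the nascent-absent regions had 13.9% higher, 24.7% lower and a median of -0.06. Scaling by library totals moved these values: the median of all regions became 0.18 and that of nascent-absent regions -0.02, with 333 higher (15.3%) and 382 lower (17.5%) beside 30.3% and 7.99% of all regions, so the direction of the nascent-absent sites holds only relative to all regions. Without aphidicolin library b 100 were higher (4.59%) and 506 lower (23.2%), beside 11.0% and 10.9% of all regions. Without library c 97 were higher (4.46%), beside 11.5% of all regions.

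**Figure D5:**
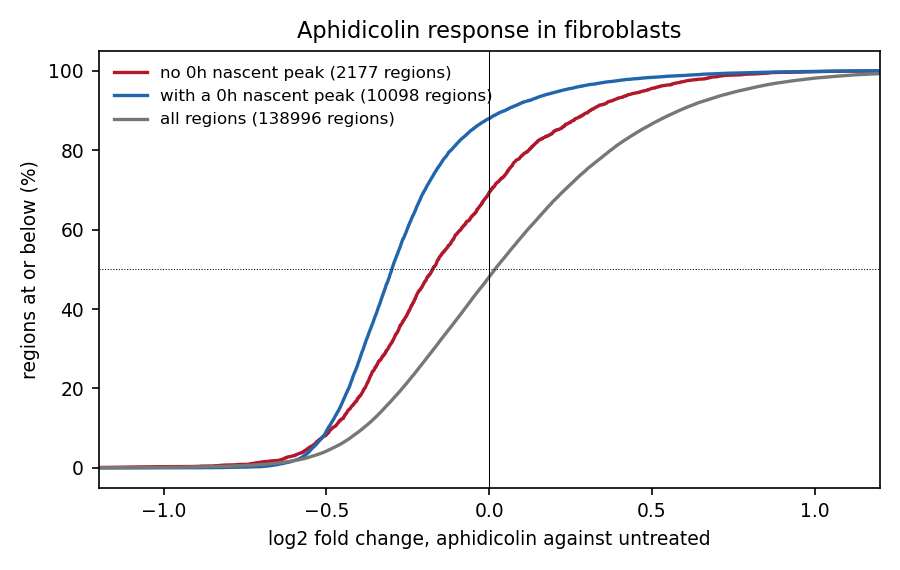
Cumulative share of counted regions (y axis, percent) by log2 fold change with aphidicolin against untreated MEF (x axis), for regions at nascent-absent sites (red, median -0.17), at nascent-detected sites (blue, median -0.3) and all regions (grey, median 0.02). Each fold is from 3 libraries a group, and the dotted line marks 50%.

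Away from gene ends, 1840 nascent-absent regions had a median of -0.16 with 144 higher (7.83%) and 612 lower (33.3%). The 3427 nascent-detected regions away from gene ends had a median of -0.22 with 7.35% higher and 43.6% lower. All 121238 regions away from gene ends had a median of 0.06 with 20.0% higher and 14.0% lower. The nascent-absent region with the largest loss lay 595 bp from Ciao3, an iron-sulphur cluster assembly gene (chromosome 17, 25772982 to 25773180). Its log2 CPM was 2.21, 2.57 and 2.29 untreated and 0.9, 1.21 and 1.02 with aphidicolin, groups that did not overlap. It fell by 1.32 on the log2 scale (SE 0.14, edgeR adjusted p = 2.8e-05, n = 3 per group). Regions near Bahcc1 (-1.31), inside Nav1 (-1.18), inside Arid5a (-1.14) and inside Bicc1 (-1.11) followed. The largest gain lay 45094 bp from Tas2r118, a taste receptor gene (chromosome 6, 23923937 to 23924066). Its log2 CPM was -0.72, -1.06 and -1.04 untreated and 0.37, 0.42 and 0.47 with aphidicolin, also without overlap, a log2 fold change of 1.41 (SE 0.21, edgeR adjusted p = 0.0002, n = 3 per group). Gains followed near Plppr4 (1.37), Gpr149 (1.27, 333378 bp away), inside Efcab6 (1.11) and inside Gm1043 (1.05). Gene names at such distances give position only.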

How the data were processed

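Peak lists and their scores are as deposited by the authors; that a score is the peak caller's was read from its values (whole numbers with no upper limit). Per the submitters' processing notes the build was mm10 and the tools included MACS2 2.2.0, Bowtie2 2.2.5 and cutadapt 2.2.0, beside SAMtools 1.4.1, bedtools 2.26.0 and bcl2fastq 2.19.1, with no parameters. Per the peak names, fibroblast course lists came from merged replicates, and the sorted-fraction lists are consensus lists whose names come from 1 library. Pooling in the ES course, the peak threshold, any shift for the transposase cut and the counting tool are not stated there. The lowest score is 30 in all lists used except Q2 (32). The bulk list of each fibroblast nascent arm was inferred from its name and from the lists left over.

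The authors also deposited raw read counts per region for the 6 aphidicolin libraries. Their columns name the group and a number that cannot be matched to sample titles, so letters a to c stand for the libraries of each group. No 2 libraries agreed within sampling noise (smallest ratio of chi-square to degrees of freedom 1.88). Separate cultures are not named in the labels, so the spread behind the p-values may be technical.

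Peaks were matched by an overlap of at least 1 bp (Python 3.11.15, pandas 2.3.3), checked against bedtools. Shares have Wilson 95% intervals and differences Newcombe intervals, or stratified normal intervals where reweighted over 5 score bins and gene-end class (within 1 kb). Genes are 21887 protein-coding models of GRCm38.p6, which has the coordinates of mm10. Counts were tested with edgeR 4.0.16 (two-sided quasi-likelihood, TMM, filterByExpr) in R 4.3.3, and with DESeq2 1.42.0 as an alternative. Scripts were tested on simulated data. The nascent-absent sites and the 15 gene lists were chosen with earlier results of these data known. Named are: the 10 nascent-absent sites with the highest score within 50 kb of a gene, the 10 highest with no later bulk peak, the 10 loci with most such sites, up to 4 genes per list, 11 set genes, the 5 highest without a 0h mature peak, and the 5 largest aphidicolin folds each way among called regions whose groups did not overlap. The promoter windows, none of which is on chromosome 18, and the rule for the 5 highest sites with a 9h and no 48h bulk peak were added after values were seen. The 4 nascent-absent promoters printed have the highest site scores. Sequences of distal sites are not used here.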

Additional observations from a re-analysis of the deposited data

How the results depend on the processing

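The settings varied were the score limit, the nascent rule, the overlap, a score minimum of 100, the list length, the gene-end distance, the locus size, and, for counts, scaling, filter, tool and each library. Of the reweighted differences, 42 of 43 alternative values kept their direction with intervals on the same side of 0; the exception is the 48h bulk difference in the top 5% (0.959 points). With the top 5%, nascent-absent sites were 13.1% of the set, 99.3% had a 0h mature, 25.3% a 48h nascent and 89.3% a 48h bulk peak, and 9.62% lay near gene ends; with the top 20% the first 4 were 48.7%, 91.3%, 20.1% and 80.9%. Requiring absence from all 3 nascent lists gave 18.1%, 97.5% mature, 78.4% in 48h bulk and 5.6% near gene ends, and later nascent detection was then not run. This rule removes nascent-absent sites that mostly kept a 48h bulk peak, so the lower 48h bulk share follows in part from the choice. With overlap of at least 50% of the site, summed over its peaks, 0h mature was 93.5%, 48h nascent 11.8%, 48h bulk 62.7% and any fibroblast list 43.6%. A score of 100 or more left 15.7% in 48h nascent and 82.4% in 48h bulk. Lists cut to 19314 peaks left 67.7% in 0h mature, 18.8% in 48h nascent and 42.6% in 48h bulk, and fewer peaks are then available by construction. Within 2.5 kb of a gene end lay 15.4%, and 28.6% of genes had a nascent-absent site within 50 kb. Leaving out regions within 1 kb of a nascent peak, or ties, moved nothing beyond its interval. Reweighting over width as well, chosen after seeing the data, gave -30.6 points for 48h nascent and -3.65 for 48h bulk. For aphidicolin, library totals gave 382 lower (17.5%) and 333 higher (15.3%), beside 7.99% and 30.3% of all regions. DESeq2 gave 735 lower (33.8%) and 117 higher (5.37%), beside 16.8% and 14.3%. Leaving out 1 library at a time gave 506 to 866 lower (23.2% to 39.8%), beside 10.9% to 20.2% of all regions. It gave 97 to 197 higher (4.46% to 9.05%), beside 11.0% to 21.5%. The number of calls at nascent-absent sites thus moved with that over all regions. Causes not named here were not tested. The count columns of both groups carry the numbers 1 to 3, which no source ties to samples. A replicate block on them, added after seeing the data, gave 916 lower (42.1%) and 208 higher (9.55%), beside 21.9% and 21.6% of all regions. Deviations from the group means correlated by 0.26, 0.01 and 0.15 within the numbers, and not every library correlated best with its own number. The peak lists are 1 per group and allow no block.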
